A study of Drosophila melanogaster with 24 samples.

Results

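The small heat shock protein genes of Drosophila melanogaster were examined in fat body RNA from adult females, in a study of adult diapause, the reproductive arrest that flies enter in the cold. The genes were chosen by symbol, and 6 of the 7 named genes were measured, out of 13234 genes in all: Hsp67Bc, l(2)efl, Hsp67Ba, Hsp27, Hsp26 and Hsp23. The seventh, Hsp22, a small heat shock protein of the mitochondrial matrix, was not analysed here. Libraries fall into 4 groups of 6, and every group was made of virgin w1118 females of 1 strain held for 25 days from soon after eclosion. The groups were kept at 11 °C with S-methoprene, at 11 °C with ethanol, at 25 °C with S-methoprene and at 25 °C with ethanol. S-methoprene is an analogue of juvenile hormone, the hormone that drives egg maturation in flies. It was given as vapour, 10 µL every 2 days, at a strength the labels write as 39.4 mm, in the 99% ethanol that the other groups received alone. Each library pooled fat body of 25 flies. Only flies whose ovaries looked as the condition called for were used, which means regressed ovaries at 11 °C with ethanol and large ovaries elsewhere, so the groups differ in ovary state by selection.

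All values are from the authors' deposited table, which gives for each gene a mean normalised read count over libraries and 1 log2 fold change with its standard error. The table names neither the factor compared nor the direction of its fold changes. A gene is therefore said to be higher on the positive side where the fold change is above 0 and higher on the negative side where it is below 0, and neither side is assigned to a temperature or a treatment. Values per library, and so the overlap of groups, are not shown. A gene is said to be called where the authors' adjusted p is under 0.05.

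Small heat shock proteins share an alpha-crystallin domain and assemble into large oligomers. They bind unfolding proteins without using ATP and keep them in a state that Hsp70 with its co-chaperones can refold or pass on for degradation. In the fly most of the genes lie together at cytological position 67B, where heat acts on them through heat shock factor and the moulting hormone ecdysone acts through its receptor. Several are also transcribed without heat stress, in nurse cells of the ovary and in ageing flies.

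The 6 measured genes were split in direction. Hsp67Bc and l(2)efl, 2 in all, were called higher on the positive side in that table, Hsp23, Hsp26 and Hsp27, 3 in all, were called higher on the negative side, and Hsp67Ba was not called. Over all 11399 genes with an adjusted p-value, 27% had a positive call and 22% a negative one, 49% together. The share of members called, 5 of 6, stands beside that background of 49%, and so many genes were called that a call alone sets no gene apart. In bulk tissue, fewer cells of a type and less RNA per cell cannot be told apart. The sizes of the fold changes were less common. Fold changes of at least 4-fold were called for 1 member on the positive side, beside 4.25% of all tested genes, and for 2 members on the negative side, beside 1.81% of all tested genes. The median log2 fold change of the 6 members was -1.81, beside 0.07 for all tested genes. That median lies between Hsp27 (-1.95) and Hsp67Ba (-1.67), which was not called, and it describes no common direction.

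**Figure D1:**
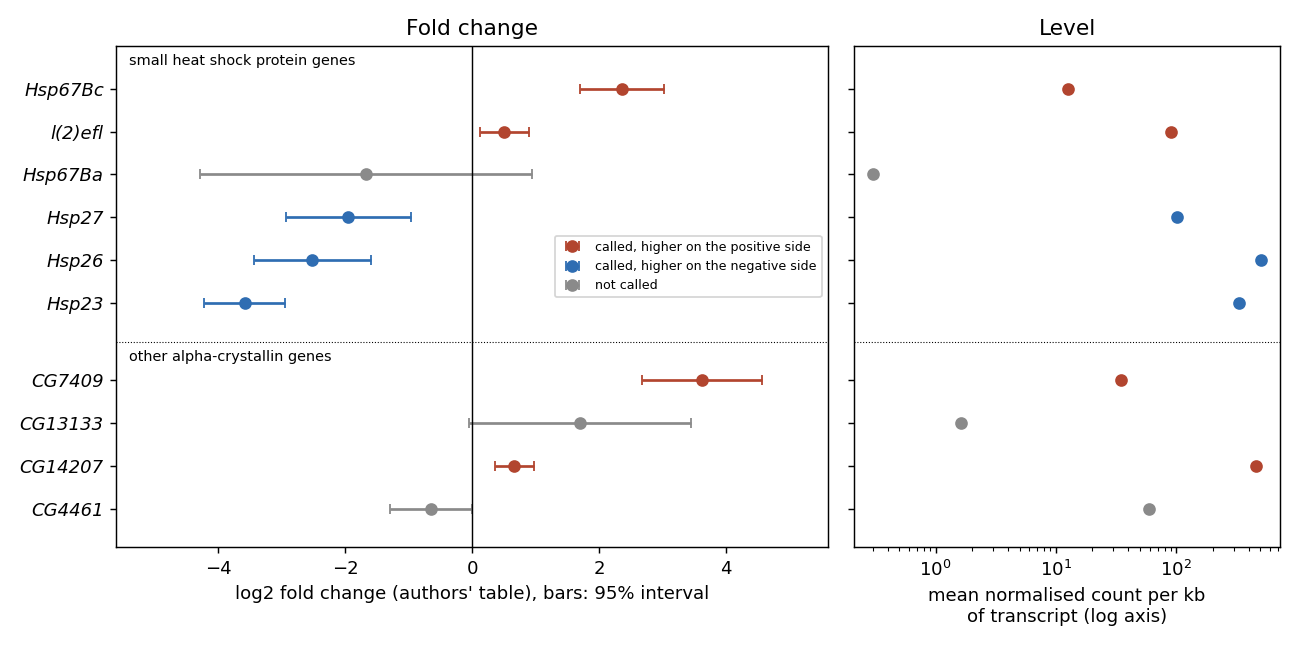
Left, log2 fold change of each small heat shock protein gene and of 4 other alpha-crystallin genes in the authors' deposited table, with 95% intervals from the deposited standard errors. Right, the mean normalised count per kb of transcript on a log axis. Hsp67Bc and l(2)efl lie right of 0, and Hsp27, Hsp26 and Hsp23 lie left of it with intervals that do not reach 0. The interval of Hsp67Ba, the gene with the lowest level, spans 0.

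Hsp23 had the largest fold change among the members. Hsp23 (FBgn0001224), which encodes a cytosolic small heat shock protein and is transcribed from 1 exon on 3L from 9381882 to 9382765, had a mean of 295 normalised counts. Its log2 fold change was -3.58 (SE 0.32, adjusted p = 9.56e-27, authors' deposited table). That is 12.0-fold higher on the negative side, with a 95% interval of 7.74-fold to 18.6-fold. Among the 5238 tested genes with a mean of at least 100, Hsp23 held rank 18 counted from the negative end of the fold changes. By adjusted p it held rank 101 of the 11399 tested genes.

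Hsp26 and Hsp27 lay on the same side as Hsp23. Hsp26 (FBgn0001225, 1 exon, 3L from 9376418 to 9377427), also a cytosolic protein and one of the genes transcribed in nurse cells, was the most abundant member, with a mean of 511 normalised counts. Its log2 fold change in the authors' deposited table was -2.52 (SE 0.47, adjusted p = 6.00e-07), which is 5.73-fold higher on the negative side (95% interval 3.03-fold to 10.8-fold). Hsp27 (FBgn0001226, 1 exon, 3L from 9384063 to 9385694), whose protein is found in the nucleus, had a mean of 164 normalised counts. The deposited log2 fold change of Hsp27 was -1.95 (SE 0.50, adjusted p = 3.94e-04), or 3.87-fold higher on the negative side with a 95% interval of 1.95-fold to 7.64-fold. The call of Hsp27 was lost with a Bonferroni adjustment (adjusted p = 1). It was also lost when the test asked for a change of more than 2-fold (adjusted p = 0.779), and over its 9 alternative settings the adjusted p ranged between 2.29e-04 and 1.

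Hsp67Bc and l(2)efl were higher on the positive side. Hsp67Bc (FBgn0001229, 1 exon, 3L from 9371511 to 9372497) encodes a partner of the co-chaperone Starvin in autophagy of damaged proteins and is held to be the fly counterpart of human HSPB8. It had a mean of 12.4 normalised counts, and its log2 fold change was 2.36 (SE 0.34, adjusted p = 3.15e-11) in the authors' deposited table. This corresponds to 5.15-fold higher on the positive side, with a 95% interval of 3.26-fold to 8.13-fold. Of the 8460 tested genes with a mean of at least 10, Hsp67Bc held rank 106 counted from the positive end.

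The change of l(2)efl was the smallest among the members. l(2)efl (FBgn0011296, 2R from 23684651 to 23685543), whose name stands for lethal (2) essential for life, encodes a small heat shock protein of muscle and is known as a target of the transcription factor foxo. It had a mean of 67.2 normalised counts, and its log2 fold change was 0.51 (SE 0.20, adjusted p = 0.0248) in the authors' deposited table, 1.42-fold higher on the positive side with a 95% interval of 1.08-fold to 1.86-fold. Its call was lost at an adjusted p of 0.01. The call was also lost with fold changes taken relative to the median of all genes (log2 fold change 0.43, adjusted p = 0.0574), with a Bonferroni adjustment and against a null of up to 2-fold (adjusted p = 1 for both). Its adjusted p ranged between 2.65e-04 and 1 over 8 alternatives. l(2)efl lies within St3, a sulfotransferase gene on the opposite strand, and 75 of the 741 exonic bases of l(2)efl are exonic in St3 too. St3 had a mean of 98.4, and its log2 fold change was 0.06 (SE 0.14, adjusted p = 0.760) in the deposited table. The sources used here do not say whether reads were counted by strand, so reads over those 75 bases cannot be assigned to either gene.

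Hsp67Ba was too low for its direction to be read. Hsp67Ba (FBgn0001227, 1 exon, 3L from 9377802 to 9379534), a member of the 67B group whose function is little described, had a mean of 0.52 normalised counts, under 1 read in an average library. Its log2 fold change was -1.67 (SE 1.33, adjusted p = 0.299) in the authors' deposited table, with a 95% interval of -4.29 to 0.94, which holds both 0 and the value of Hsp23. An antisense RNA, asRNA:CR43481, covers 1316 of its 1733 exonic bases on the opposite strand and had a mean of 0.56.

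Per kb of transcript, the scale on which levels compare between genes, the order was Hsp26, Hsp23, Hsp27, l(2)efl, Hsp67Bc and Hsp67Ba. The level of Hsp26 was 506 normalised counts per kb and that of Hsp23 was 334, which put them at percentiles 93.0 and 90.3 of all genes with a known transcript length. Hsp27 stood at 100.4 normalised counts per kb and l(2)efl at 90.7, at percentiles 75.4 and 73.8. Hsp67Bc at 12.5 counts per kb and Hsp67Ba at 0.30 were at percentiles 42.6 and 11.6. The 2 members with the highest levels were thus those with the 2 largest fold changes toward the negative side, and these levels carry no error because the table gives only a mean over libraries. That mean pools both sides of the comparison, so the order within either side may differ.

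Differences between members were taken for all 15 pairs. Correlations between genes across libraries are unknown, so the sum of both standard errors, the largest a difference can have, was used for each 95% interval. In each pair the gene with the larger fold change was put first, so every difference is above 0 by construction. The intervals were not adjusted for the number of pairs. In 9 of 15 pairs the whole interval lay above 0. Hsp67Bc exceeded Hsp23 by 5.95 on the log2 scale (interval 4.66 to 7.24), Hsp26 by 4.88 (3.30 to 6.46) and Hsp27 by 4.31 (2.67 to 5.96). l(2)efl exceeded Hsp23 by 4.09 (3.07 to 5.11), and Hsp67Bc exceeded l(2)efl by 1.86 (0.81 to 2.91), so both positive members also differed from each other. Among the negative members Hsp27 exceeded Hsp23 by 1.63, with an interval of 0.02 to 3.25 whose lower end was barely above 0. Hsp26 exceeded Hsp23 by 1.07 (interval -0.48 to 2.62) and Hsp27 exceeded Hsp26 by 0.57 (interval -1.34 to 2.47), which leaves the order of these neighbours unresolved.

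Both directions were found within the 67B cluster. The 6 named 67B genes occupy 14.2 kb, and Hsp26, Hsp23 and Hsp27 lie within 9.28 kb of it together with Hsp67Ba. Hsp67Bc lies at the other end, on the far side of Hsp22 and of CG4461, a further alpha-crystallin gene. CG4461 (3L from 9375430 to 9376293), next to Hsp26, had a mean of 51.2 and was not called, with a fold change of -0.65 on the log2 scale (SE 0.33, adjusted p = 0.0912, authors' deposited table). CG4456, also listed as Hsp67Bb though it encodes no alpha-crystallin domain, had a mean of 0.20 and no adjusted p-value. All 1900 exonic bases of Hsp22 are also exonic in CG4456 on the same strand, so reads from these bases cannot be told apart by position.

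Genes that flank the cluster showed no common direction. Within 20 kb of it 11 other genes were tested, giving 5 positive calls, 3 negative calls and 3 genes without a call, with a median log2 fold change of -0.07. CG32040 at 2.02 (SE 0.25) and the cuticle protein gene Cpr67B at 1.79 (SE 0.32) were the highest of them in the authors' deposited table. Klp67A, a mitotic kinesin, was lowest at -1.54 (SE 0.43), and Fdx1, a mitochondrial ferredoxin gene next to Hsp67Bc, stood at -0.68 (SE 0.17). Toward Hsp27 the nearest tested gene was CG4080 at 0.53 (SE 0.12). Both immediate tested neighbours of the cluster therefore had a sign opposite to that of the member beside them.

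**Figure D2:**
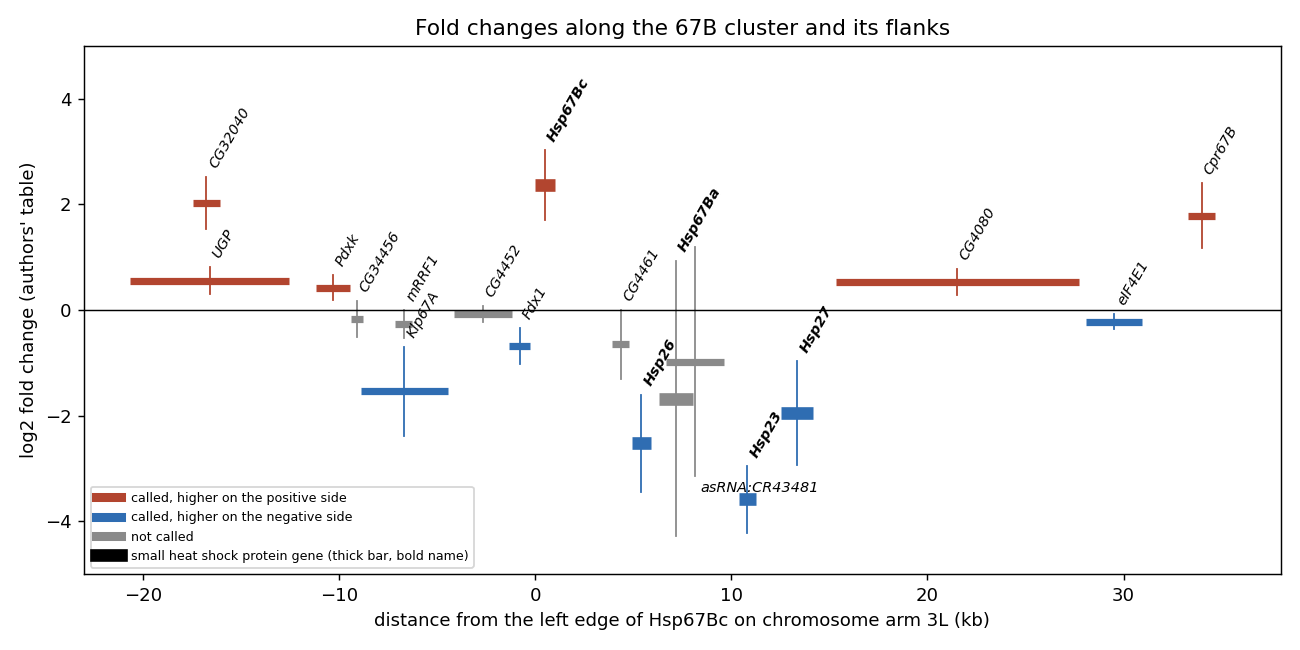
Log2 fold change in the authors' deposited table (vertical) against distance along 3L from the left edge of Hsp67Bc (horizontal, kb), for tested genes of the 67B cluster and within 20 kb of it. Bars span each gene, thin lines are 95% intervals, and thick bars are the small heat shock protein genes. Hsp67Bc lies at 2.36, and Hsp26, Hsp23 and Hsp27 lie between -3.58 and -1.95.

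Among the other alpha-crystallin genes both calls were positive. Of 5 named, 4 were measured, with 2 positive calls and 0 negative calls (median log2 fold change 1.18, beside 0.07 for all tested genes). That median lies between CG14207 (0.67) and CG13133 (1.70), which had a mean of 1.90 and was not called, and it describes no common shift. The share called, 2 of 4, is near the 49% of all tested genes, of which 27% had a positive call. The fifth gene, CG43851, was not measured. CG7409 (3L from 7754409 to 7755168, away from 67B) had the largest fold change of the 10 measured genes with this domain, 3.62 (SE 0.48, adjusted p = 1.13e-12) in the authors' deposited table, at a mean of 26.2. It is 12.3-fold higher on the positive side (95% interval 6.39-fold to 23.7-fold), close in size to Hsp23 and opposite in sign. It lies inside an intron of CG32373 on the same strand, with 0 shared exonic bases, and CG32373 stood at 0.16 (SE 0.29, adjusted p = 0.660). CG14207 (X from 19605199 to 19611413), also listed under the name HspB8, had the highest level of these 4 genes, 459 normalised counts per kb (mean 634), and its deposited log2 fold change was 0.67 (SE 0.16, adjusted p = 1.03e-04). The call of CG14207 was lost with a Bonferroni adjustment (adjusted p = 0.262) and against a null of up to 2-fold (adjusted p = 1). CG13133 had a mean of 1.90 and was not called, with a deposited log2 fold change that stood at 1.70 (SE 0.89, adjusted p = 0.101).

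The members share gene structure beyond their domain. In release 6 annotation 5 of the 6 measured members consist of 1 exon, l(2)efl being the exception with 3, and their longest transcripts run between 741 and 1733 bases. Protein-coding genes of 1 exon had a different background, with positive calls for 17.9% and negative calls for 31.4% of the 1131 tested, and a median log2 fold change of -0.12. Taken relative to the median of genes of like transcript length and mean count, the log2 fold change was 2.31 for Hsp67Bc, 0.80 for l(2)efl, -1.88 for Hsp27, -2.03 for Hsp26, -2.45 for Hsp67Ba and -3.32 for Hsp23. No member changed sign, and the same 5 members were called.

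The fold changes of Hsp23, Hsp26 and Hsp27 were imprecise for genes of their abundance. The standard error of Hsp27, 0.50, was 3.84 times the median of the 500 genes nearest to it in mean count (0.13), higher than 98.0% of them. That of Hsp26 was 3.71 times its own such median and higher than 97.2%, and that of Hsp23 was 2.66 times and higher than 96.4%. The members on the positive side stood closer to their neighbours in mean, at 1.09 times for Hsp67Bc and 1.30 times for l(2)efl. Other genes had standard errors this far above those of like mean, from several lists. The 4 measured Hsp70B genes, near-identical copies whose reads may be shared, lay between 3.09 and 3.85 times, and Hsp68 lay at 2.64 times. The constitutively expressed relatives Hsc70-1, Hsc70-2, Hsc70-3, Hsc70-4 and Hsc70-5 lay at 1.73, 1.37, 0.76, 0.88 and 0.66 times. Not every heat-induced gene stood high, as lncRNA:Hsromega, an RNA also induced by heat, lay at 0.75 times. The Hsp90 gene Hsp83 lay at 1.18 times. Over the 22 genes for heat shock factor and for the Hsp70 and Hsp90 machinery the median was 0.95 times. The median was 3.04 times over 19 germline and nurse cell markers (highest nos, at 5.53), 8.30 times over 20 eggshell markers and 2.45 times over 10 cold and stress markers. Yp1 lay at 2.63 times, beside a median of 1.53 over the fat body markers. A high value was thus not particular to heat-inducible genes. Medians were lower in other lists, at 1.43 for muscle, 1.26 for hemocyte and 1.10 for neuron markers. They were 1.06 for the ecdysone and 0.99 for the FOXO and JNK genes. The table does not show which libraries these standard errors rest on.

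**Figure D3:**
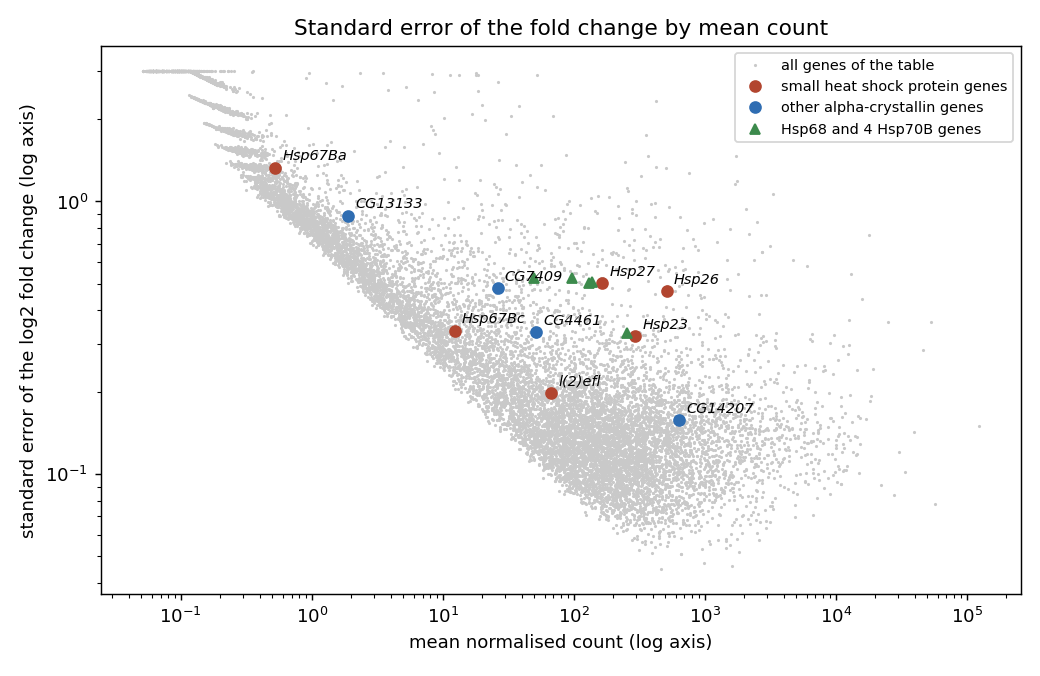
Standard error of the log2 fold change against mean normalised count, both from the authors' deposited table and on log axes. Grey points are all 13234 genes, red points the small heat shock protein genes, blue points the other alpha-crystallin genes and green triangles Hsp68 with 4 Hsp70B genes. Hsp23, Hsp26 and Hsp27 lie above nearly all genes of like mean, while Hsp67Bc lies within the band.

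The regulator and the chaperone machinery that small heat shock proteins work with lay in a narrower range of fold changes. The gene for heat shock factor itself, Hsf, stood at 0.20 (SE 0.11, adjusted p = 0.119) in the authors' deposited table. Of 22 genes for heat shock factor and for the Hsp70 and Hsp90 machinery, 4 had positive and 6 had negative calls (median -0.20). The share called, 45.5%, is near the 49% of all tested genes. The heat-inducible genes did not all lie with Hsp23. Hsp68 was called on the negative side at -1.89 (SE 0.33, adjusted p = 9.43e-08), whereas the 4 Hsp70B genes stood between -0.49 and -0.32 with standard errors of 0.50 to 0.52 and adjusted p-values between 0.431 and 0.638. The stress-responsive noncoding RNA lncRNA:Hsromega, which is also induced by heat, was called on the positive side at 0.80 (SE 0.10). The Hsp90 gene Hsp83, transcribed in nurse cells as Hsp26 is, stood at -0.30 (SE 0.16, adjusted p = 0.115), and its kinase co-chaperone Cdc37 was called at -0.51 (SE 0.08).

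Partners of Hsp67Bc in chaperone-assisted autophagy had calls in both directions. Of 8 measured, 4 had positive and 2 had negative calls, with a median of 0.31. Over all tested genes positive calls also outnumbered negative ones, at 27% against 22%, and whether the partners differ from that was not tested. The genes stv, STUB1 and Hsc70-4 are also in the Hsp70 and Hsp90 list. The co-chaperone stv (Starvin) stood at 0.88 (SE 0.24, adjusted p = 7.20e-04) in the authors' deposited table, the ubiquitin ligase STUB1 at 0.44 (SE 0.09), the filamin cher at 0.63 (SE 0.13) and Atg8a, the membrane-bound autophagy marker, at 0.45 (SE 0.09). The kinase Atg1 at -0.32 (SE 0.10) and the chaperone Hsc70-4 at -0.90 (SE 0.12) were called on the negative side, and the cargo receptor ref(2)P stood at 0.17 (SE 0.13, adjusted p = 0.303). Of 8 tested mitochondrial chaperones and proteases, the compartment of Hsp22, 0 had positive and 3 had negative calls (37.5% called, beside 49% of all tested genes, median -0.24). Those were Hsp60A at -0.54 (SE 0.12), Roe1 at -0.43 (SE 0.11) and HtrA2 at -0.31 (SE 0.11) in the deposited table.

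**Figure D4:**
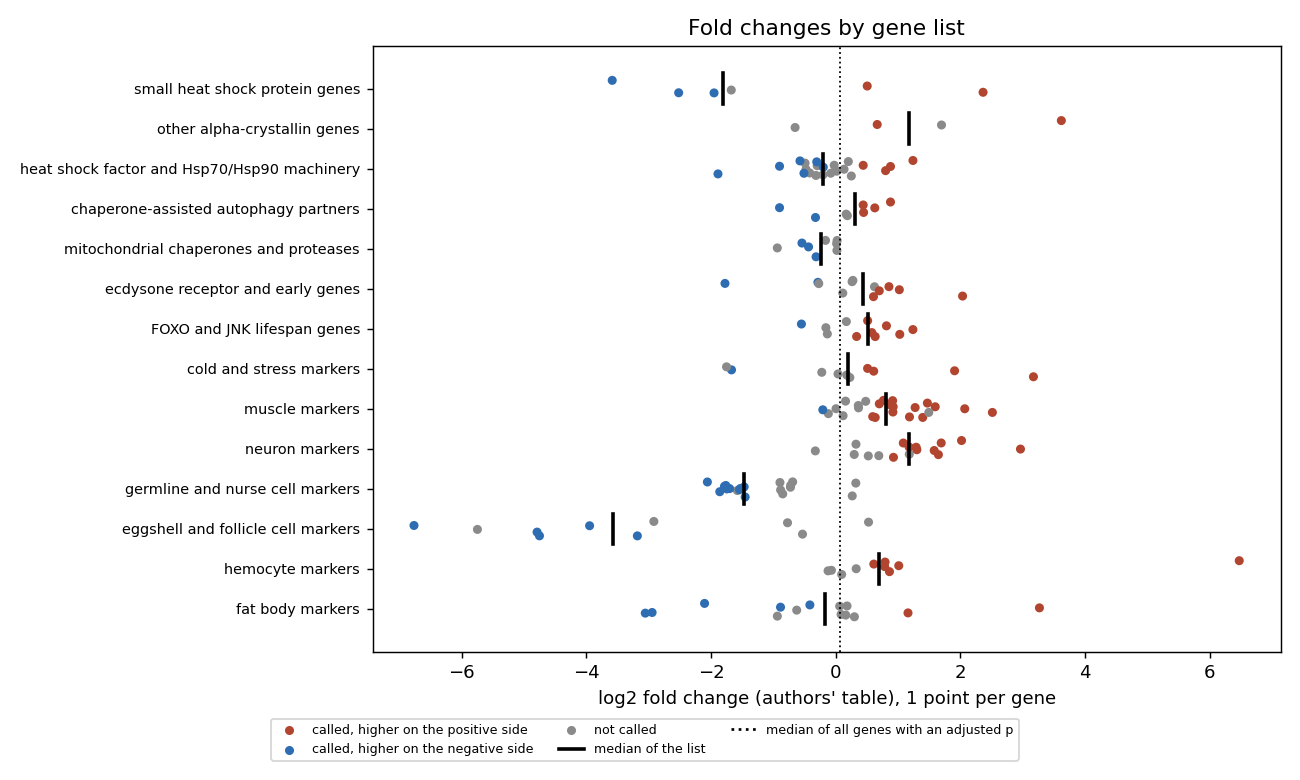
Log2 fold change in the authors' deposited table for each tested gene of the small heat shock group and of the other lists, 1 point per gene, with black bars at list medians and a dotted line at the median of all tested genes (0.07). The small heat shock genes spread from -3.58 to 2.36, wider than the 22 genes of the Hsp70 and Hsp90 machinery (-1.89 to 1.24).

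Some fat body genes were abundant and others were low, and both fat body genes and markers of other tissues were called in the same comparison. The yolk protein genes Yp1, Yp2 and Yp3, the lipophorin gene apolpp and the fatty acid synthase FASN1 were above percentile 97 of level per kb (97.5 or higher), while the larval storage genes Lsp2 and Fbp1 had means of 8.37 and 3.38. Of 14 fat body markers 2 had positive and 5 had negative calls. The yolk protein genes lay on the side of Hsp23, Yp1 at -3.05 (SE 0.36), Yp2 at -2.94 (SE 0.36) and Yp3 at -2.10 (SE 0.29) in the deposited table. The 2 positive calls were GLaz at 1.16 (SE 0.15, mean 68.5) and Fbp2 at 3.27 (SE 0.58, mean 4.20). Beside the members on the negative side, germline and nurse cell markers gave 0 positive and 10 negative calls of 19, and eggshell and follicle cell markers 0 and 5 of 10 tested. A further 10 eggshell genes had no adjusted p-value, and 8 of them had fold changes above 0 and 2 below 0, among them Cp38 at 2.81 (SE 2.34) and yellow-g2 at 2.60 (SE 1.10) in the authors' deposited table, both named after their values were seen. The means of these 10 genes ran from 5.05 to 424, while other genes had an adjusted p-value down to a mean of 0.44. The sources used here do not say why the 10 lack one, and their fold changes are not read as a direction. Beside the members on the positive side, muscle markers gave 15 positive and 1 negative call of 24, neuron markers 10 and 0 of 16, and hemocyte markers 6 and 0 of 10. Over all tested genes 27% had a positive and 22% a negative call, 49% together. In either direction, 52.6% of germline, 50% of eggshell and 50% of fat body markers tested were called. The shares were 66.7% for muscle, 62.5% for neuron and 60% for hemocyte markers. Whether any list differs from the background was not tested. Summed means per kb were 447 for the germline list, 3681 for the eggshell and follicle cell list and 3990 for the muscle list. They were 92.8 for the neuron list, 1134 for the hemocyte list and 89771 for the fat body list. The eggshell sum includes the 10 genes with no adjusted p-value. Most of the fat body sum came from Yp2 (33167), Yp3 (24622) and Yp1 (15596), which were themselves called on the negative side. No measured marker had a mean of 0, the marker sums in each group are unknown, and their part in the fold changes of the members was not tested.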

How the data were processed

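RNA of 24 fat body libraries (4 groups of 6) was poly-A selected and sequenced on an Illumina platform, per the labels' protocols. The submitters' processing notes name build dm6 with DESeq2, Bowtie2, Picard, SAMtools, cutadapt, Trim Galore and FastQC; the sources used here state no versions, read counter, strand setting or libraries fitted. The authors deposited 1 table. Per the file headers it holds a mean normalised count (the signal unit), a log2 fold change with its standard error, a test statistic (a score), and p-values before and after adjustment. An adjusted p-value was given for 11399 genes, 40 genes had no p-value, and 1795 had only an unadjusted one. The means sum to 4719004; depth per library is unknown, so the deposited standard errors alone give the precision.

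The design had tests for values per library. As the table holds the authors' comparison only, calls rest on their adjusted p under 0.05, as planned for such a file. Intervals are normal 95% intervals. Means per kb used the longest transcript of Ensembl release 115 (build BDGP6, dm6 coordinates), which matched 94.6% of genes by symbol. Calculations used Python 3.11.15, pandas 2.3.3 and scipy 1.17.1, and were tested on simulated data. The members and the 13 gene lists were chosen with earlier results of these data known. All members and other alpha-crystallin genes are named, with genes near 67B and, per list, up to 4 called genes with the smallest adjusted p, of which a part is printed. Hsf, Hsp83, the Hsp70B genes, the Hsc70 genes other than Hsc70-4, nos, Cp38, yellow-g2, EcR, usp, kay, stv, ref(2)P, Atg1, apolpp, FASN1, Lsp2, Fbp1, Fbp2, St3 and CG32373 fall outside that rule and were chosen after their values were seen. The planned promoter motif search and protein comparison were not made here, as no sequences were used. Nothing says that libraries were separate cultures, so p-values measure the spread between libraries in the authors' fit.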

Additional observations from a re-analysis of the deposited data

How the results depend on the processing

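The count of 5 small heat shock protein genes called became 3 with a Bonferroni adjustment, 3 against a null of up to 2-fold, and 3 among genes with a mean of at least 100, where only 3 members were tested. The count of 2 for the other alpha-crystallin genes became 1 under each of these 3 settings. With a mean of at least 100 only 1 of those genes was tested, and it was called. The other chaperone and stress lists were counted together with the ecdysone and the FOXO and JNK lists. Of their 67 tested genes 36 were called, beside 49% of all tested genes. That count of 36 became 20 with Bonferroni and 2 against the 2-fold null. A threshold of 0.01, adjustment over every gene with a p-value, a minimum mean of 10, a t distribution with 20 degrees of freedom, and both ways of recentring kept these 3 counts within 1.5 times. Hsp23, Hsp26 and Hsp67Bc kept their call under every alternative in which they were tested (9, 9 and 8), with log2 fold changes of -3.66 to -3.32, -2.59 to -2.03 and 2.29 to 2.36. No fold change reversed. Treating members as uncorrelated again left the intervals of 9 of 15 differences above 0. Leave-one-out fits and other count tools could not be run on a table of fold changes. No paired analysis was possible because the table holds no values per library. Depth per library is unknown; the lowest means among the 10 alpha-crystallin genes were those of Hsp67Ba (0.52) and CG13133 (1.90), with standard errors of 1.33 and 0.89.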

Other observations

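Genes of 2 signals that are known to act on small heat shock genes were described from lists. Of 12 ecdysone receptor and early genes, 5 had positive and 2 had negative calls, with a median log2 fold change of 0.44. The receptor subunit EcR stood at 0.26 (SE 0.13, adjusted p = 0.0750) in the authors' deposited table, and its partner usp was called at -0.28 (SE 0.08, adjusted p = 7.98e-04), both named after their values were seen. The early gene Eip93F at 1.02 (SE 0.10) and the nuclear receptors Hr39 at 0.85 (SE 0.11) and ftz-f1 at 0.70 (SE 0.15) had positive calls, and Eip71CD at -1.78 (SE 0.26) had a negative one. Of 11 FOXO and JNK genes, 7 had positive and 1 had negative calls (median 0.51). Sesn, an inhibitor of TOR, stood at 1.24 (SE 0.09) and foxo at 0.58 (SE 0.09). The JNK kinase bsk stood at 0.63 (SE 0.09) and the stress-induced lipocalin NLaz at 1.03 (SE 0.15) in the deposited table. The AP-1 subunit kay stood at -0.55 (SE 0.14), chosen after its value was seen. Of 10 cold and stress markers, 4 had positive and 1 had negative calls (median 0.20). Fst stood at 3.17 (SE 0.31), smp-30 at 1.91 (SE 0.22), the desaturase Desat1 at 0.51 (SE 0.08) and the Turandot gene TotX at -1.67 (SE 0.36). The shares called were 58.3% for the ecdysone, 72.7% for the FOXO and JNK and 50% for the cold and stress list, beside 49% of all tested genes. These lists hold genes of many functions, and how they bear on the small heat shock genes was not tested.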
